A study of Mus musculus with 4 samples.

Results

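Notch1, Notch2, Fgfr1, Fgfr2, Fgfr3 and Ptch1 encode receptors of the Notch, fibroblast growth factor (Fgf) and hedgehog pathways. Every row that carried one of these 6 gene names in the tables of called N6-methyladenosine (m6A) sites was taken. This gave 48 rows, at 44 distinct bases, of 11986 rows in named genes and 34741 rows in all. The 6 genes were among 5526 named genes with at least 1 listed site.

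The tables come from cortical cells of mice whose genotype is given as APOBEC1-YTH, which joins a cytidine deaminase to the m6A-binding YTH domain. All mice were 10 weeks old when tamoxifen was begun, with 5 daily doses of 20 mg/kg spaced by 24 hours, and cortex was collected 7 days after the last one, per the labels. Cells were sorted as astrocytes (anti-ACSA2) or microglia (anti-Cd11b), with 2 libraries of each. No group was without the fusion or without tamoxifen, and the labels name neither the promoter that drives the fusion nor the number of mice behind each library. GLORI, a chemical treatment after which unmethylated adenosine is read as G, gave the level of each site, the share of reads that still carried A.

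Notch receptors bind Delta and Jagged ligands on neighbouring cells and are then cleaved, and the released intracellular part acts with Rbpj on transcription. Fgf receptors are tyrosine kinases that signal through adaptors such as Frs2 to the MAP kinase pathway, and Fgfr3 is a known marker of astrocytes. Ptch1 binds hedgehog ligands and, when unbound, holds back Smo, and it is itself a hedgehog target. m6A is laid down mainly at adenosines followed by C, often within GAC or AAC, and is read by YTH proteins.

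The labels and the marker sites disagreed for 2 of the 4 libraries, so libraries are named here by label only. Sites were listed for 22 of 25 astrocyte markers in the library labelled astrocyte 1 and for 18 in microglia 2, against 1 in astrocyte 2 and 0 in microglia 1. Of 25 microglia markers, 2 were listed in astrocyte 1, 1 in microglia 2, 20 in astrocyte 2 and 17 in microglia 1. The libraries labelled astrocyte 2 and microglia 2 therefore listed mostly markers of the other label. Whether labels or files of these libraries were exchanged was not tested. Of 15 oligodendrocyte markers, 11 had a site in astrocyte 1, 11 in microglia 2 and none in the others. In the order astrocyte 1, astrocyte 2, microglia 1, microglia 2, neuron markers had a site in 3, 0, 1 and 1 of 20 genes, oligodendrocyte precursor markers in 3, 0, 1 and 1 of 8, and endothelial and mural markers in 3, 0, 0 and 4 of 16. Rows in named genes ranged from 1066 in microglia 1 through 2348 in astrocyte 2 and 3782 in microglia 2 to 4790 in astrocyte 1, and read depth is unknown. In such bulk libraries fewer cells of a type and less RNA per cell cannot be told apart.

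All 6 receptors had sites in the library labelled astrocyte 1, 5 had sites in microglia 2, 1 in astrocyte 2 and none in microglia 1. Of all named genes, 57% had a site in astrocyte 1, 47.2% in microglia 2, 31.1% in astrocyte 2 and 17% in microglia 1. The receptor rows numbered 26, 13, 9 and 0 in that order. As a share of each library's sites in named genes, the receptors made up 0.543% in astrocyte 1, 0.383% in astrocyte 2, 0.344% in microglia 2 and none in microglia 1. Fgfr1, Fgfr2, Fgfr3 and Ptch1 were listed in astrocyte 1 and microglia 2 and in no other library, a pattern held by 15.7% of the 5526 named genes. Notch2 was listed in every library but microglia 1, as were 4.89% of named genes. Notch1 was listed in astrocyte 1 alone, as were 24.3% of named genes. These shares are over named genes of any site number, and genes with few sites have less room to be listed in several libraries.

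**Figure D1:**
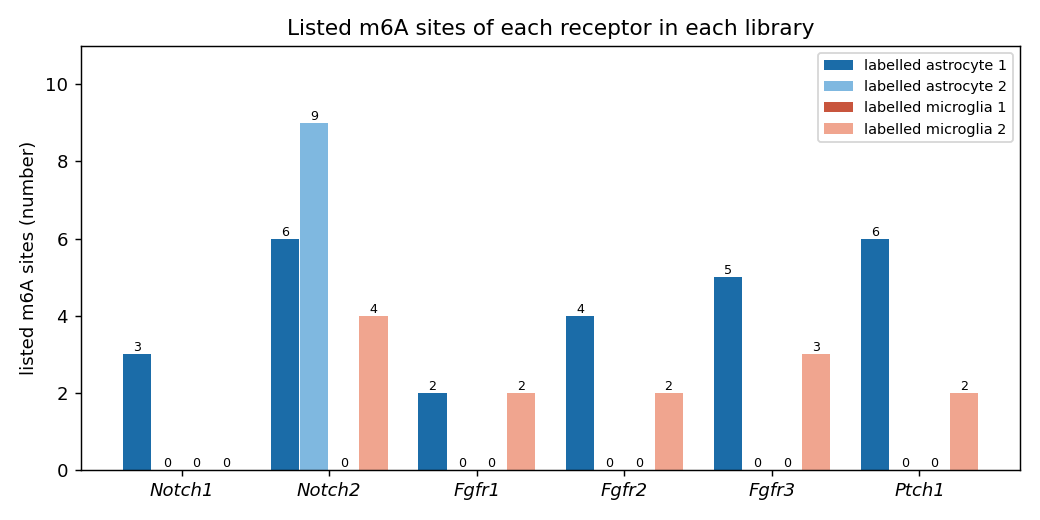
The bars give the number of listed m6A sites of each receptor (vertical axis) in each of the 4 libraries, with the number printed above each bar. Notch2 has 9 sites in the library labelled astrocyte 2, where every other receptor has 0, and no receptor has a site in microglia 1.

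In the libraries with microglia marker sites, those labelled astrocyte 2 and microglia 1, Notch2 was the only receptor listed, in astrocyte 2. Genes with at least 3 sites elsewhere often lacked sites in these libraries too. Of 1292 genes with at least 3 sites over the other libraries, 80.8% had none in microglia 1, and all 6 receptors were among them. Of 1089 genes chosen in the same way against astrocyte 2, 68.4% had none there, as did 5 of 6 receptors. The absences were thus shared with most genes that had at least 3 sites over the other libraries. These genes were not matched to the receptors in site number, which ran from 3 rows for Notch1 to 19 for Notch2. For a base that a table leaves out, lack of m6A, a level too low to be called and lack of reads cannot be told apart.

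By label, the 6 receptors had 17.5 ± 12.02 sites per library in astrocytes and 6.5 ± 9.19 in microglia (SD, n = 2 libraries each). The difference of 11 sites did not pass a two-sided exact permutation test (p = 0.667), and the smallest p this design allows is 0.333. The difference hung on single libraries. It dropped to 2.5 sites when astrocyte 1 was left out and to 4.5 when microglia 1 was, and stood at 19.5 without astrocyte 2 and 17.5 without microglia 2. In the replicate 1 libraries alone astrocyte exceeded microglia by 26 sites, and in the replicate 2 libraries, where markers go against the labels, the difference was -4. None of the 6 had sites in each astrocyte library and in no microglia library, a pattern of 4.09% of named genes, or the reverse pattern, of 0.869%. Without astrocyte 2, Notch1 would meet the first rule, as would the 24.3% of named genes listed in astrocyte 1 alone. Without microglia 2, Notch2 would meet it, as would the 4.89% of named genes listed in every library but microglia 1. In both cases the 4.09% of named genes that meet the full rule come on top. Without astrocyte 1 or microglia 1 no receptor met it, and the share of named genes was not worked out.

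Notch2 had the most rows of the 6, 19 rows at 17 bases of the plus strand of chromosome 3 in mm39, over 34033 nucleotides of genome. The library labelled astrocyte 1 listed 6 bases, astrocyte 2 listed 9 and microglia 2 listed 4. In astrocyte 2 the count of 9 was reached by 4 of 1716 genes. The others, named after their values were seen, were Malat1, a nuclear long non-coding RNA, Ssh2, a cofilin phosphatase, and Tgfbr1, which encodes a TGF-beta receptor and is one of the microglia markers used here. In astrocyte 1 the count of 6 was reached by 1.78% of listed genes, and in microglia 2 the count of 4 by 3.91%. Both astrocyte counts exceeded both microglia counts, by 5.5 sites on average, with an exact two-sided permutation p of 0.333, the smallest this design allows. That order rests on labels the markers go against: the libraries with most astrocyte marker sites, astrocyte 1 and microglia 2, had 6 and 4 Notch2 sites, and those with most microglia marker sites, astrocyte 2 and microglia 1, had 9 and 0. Seen so, the values overlap. Of 7 such tests, for each receptor and for their sum, each had a Benjamini-Hochberg adjusted p of 1.

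The Notch2 bases of the library labelled astrocyte 2 were not those of the other libraries. None of its 9 bases was listed in astrocyte 1 or microglia 2, while astrocyte 1 and microglia 2 shared 2 of theirs. Other genes also lacked shared bases. Of 64 genes with at least 2 sites in each of astrocyte 1 and astrocyte 2, 64.1% shared no base, and of 64 such genes for astrocyte 2 and microglia 2, 54.7% shared none. With at least 4 sites in each library, as Notch2 had, the shares were 4 of 8 genes (50%) and 2 of 6 (33.3%), Notch2 included. Some of the bases lay near those of other libraries in common stretches. Between 98042726 and 98043019, a stretch of 293 nucleotides, astrocyte 1 listed 2 bases, astrocyte 2 listed 2 others and microglia 2 listed 1. Between 98054963 and 98056633 there were 7 bases, 3 from astrocyte 1, 3 from astrocyte 2 and 1 from microglia 2, and no base was common to any 2 of them.

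Within the first of these stretches the levels were intermediate. In the library labelled astrocyte 1 the GAC at 98042726 stood at 41.7%, and 29 nucleotides on, the GAC at 98042755 stood at 37.5% in astrocyte 2. The AAC at 98042873 stood at 77.8% in astrocyte 1 and at 57.1% in microglia 2. The GAC at 98043019 stood at 50% in astrocyte 2. The 5 values thus spread from 37.5% to 77.8%, and the highest was at the base listed in more than 1 library.

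The downstream end of the listed Notch2 bases held both its highest and its lowest values. In the library labelled astrocyte 1 the GAC sites at 98054963 and 98056633 stood at 95.6% and 90.5%, and the one at 98055974 at 60%. In microglia 2 the GAC at 98056045, 71 nucleotides from the last of these, stood at 100%. In astrocyte 2 the GAC sites at 98054261, 98055301, 98055729 and 98056203 stood at 90.9%, 57.1%, 100% and 28.6%. High and low bases thus lay close to each other in the same library. The GAC at 98053781, the second shared base, stood at 57.9% in astrocyte 1 and 68.4% in microglia 2.

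Farther upstream, Notch2 had bases in 1 library each, between 799 and 6754 nucleotides from the nearest base of another library. The library labelled astrocyte 2 listed AAC sites at 98029259 with 33.3%, 98029354 with 45.5% and 98041927 with 31.3%, and microglia 2 listed an AAC at 98022600 with 50%. None of these 4 upstream bases exceeded 50%. Of the 6 AAC rows of Notch2, these made up 4, and the other 2 were the shared base at 98042873. The median level over all Notch2 rows was 68.9% in astrocyte 1, 45.5% in astrocyte 2 and 62.8% in microglia 2.

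Notch1, the paralogue of Notch2, had 3 bases, all in the library labelled astrocyte 1 and within 1273 nucleotides of the minus strand of chromosome 2. In the direction of transcription, the AAC at 26350007 stood at 60%, the GAC at 26349768 at 21.7% and the GAC at 26348734 at 66.7%. The middle base thus stood below both neighbours, one of them only 239 nucleotides upstream. A count of 3 sites or more was held by 10.9% of the genes listed in that library.

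The Fgf receptors had 18 rows, 11 in the library labelled astrocyte 1 and 7 in microglia 2, and every row stood at 50% or less. This holds for rows that carried the gene name. Rows without a gene name inside these receptors, described under other observations, stood at 50% to 100%. In astrocyte 1, 43.2% of rows in genes with at least 2 sites stood at 50% or less, and in microglia 2, 53.6%. The median over Fgf receptor rows was 33.3% in astrocyte 1 and 16.7% in microglia 2. The medians over rows of all genes with at least 2 sites were 60% and 50%. Among astrocyte markers, those with the most rows, Slc1a2, Aqp4 and Kcnj10, had medians of 20.9%, 25% and 44% over all libraries. These are descriptions, since sites of 1 gene share a transcript and the depth at each base is unknown.

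Fgfr3 held the lowest levels of the 6 receptors. Its 7 bases lay within 6640 nucleotides of the plus strand of chromosome 5. In the library labelled astrocyte 1 the GAC sites at 33891792, 33892952, 33892988, 33893204 and 33894198 stood at 33.3%, 33.3%, 16.7%, 42% and 18.2%. In microglia 2 the GAC at 33887558 stood at 12.96%, the AAC at 33890636 at 12.05% and the GAC at 33892952 at 16.7%. The microglia 2 values did not exceed the lowest astrocyte 1 value, but only 1 base was common to both libraries. The 3 bases between 33892952 and 33893204, a stretch of 252 nucleotides, held 4 of the 8 rows. The lowest listed level of any site was 10% in astrocyte 1 and 10.05% in microglia 2, so the 2 lowest Fgfr3 sites stood near the edge of the tables.

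Fgfr2 had 6 bases on the minus strand of chromosome 7, each in 1 library. The first in the direction of transcription were the GAC at 129867931 with 33.3% in the library labelled astrocyte 1 and the GAC at 129863610 with 41.7% in microglia 2. An AAC at 129844347 followed with 33.3% in astrocyte 1. The other 3 bases lay within 452 nucleotides at the downstream end of a listed span of 103420 nucleotides. These were the GAC sites at 129764963 and 129764913 with 50% and 33.3% in astrocyte 1 and at 129764511 with 42.1% in microglia 2. The levels of the libraries overlapped, and the range over all 6 bases, 33.3% to 50%, was the narrowest of the receptors. Rows without a gene name inside Fgfr2, described under other observations, stood at 50% to 100% and are not in this range.

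Fgfr1, a receptor found on many cell types, had 4 bases on the plus strand of chromosome 8, all GAC and each in 1 library. The library labelled microglia 2 listed 26009043 with 42.9% and 26054464 with 15.9%. Astrocyte 1 listed 26058215 with 50% and 26064061 with 27.1%. The nearest bases were 3751 nucleotides apart, and Fgfr1 was the only receptor with no 2 bases within 500 nucleotides. Its 2 sites in each library were matched or exceeded by 28.5% of listed genes in astrocyte 1 and 27.3% in microglia 2.

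Ptch1 had 8 rows at 7 bases on the minus strand of chromosome 13. The library labelled astrocyte 1 listed the AAC at 63689049 with 33.3%, and the GAC sites at 63687172 with 60% and 63668200 with 22.2%. The remaining 4 bases, all GAC, lay within 347 nucleotides at the downstream end. There astrocyte 1 listed 63659829 with 50%, 63659733 with 90.9% and 63659685 with 32%. Microglia 2 listed 63659829 with 90% and 63659482 with 58.3%. Bases 48 nucleotides apart in astrocyte 1 thus stood at 90.9% and 32%, and both microglia 2 rows lay in this stretch. The 6 sites of Ptch1 in astrocyte 1 were matched or exceeded by 1.78% of listed genes.

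**Figure D2:**
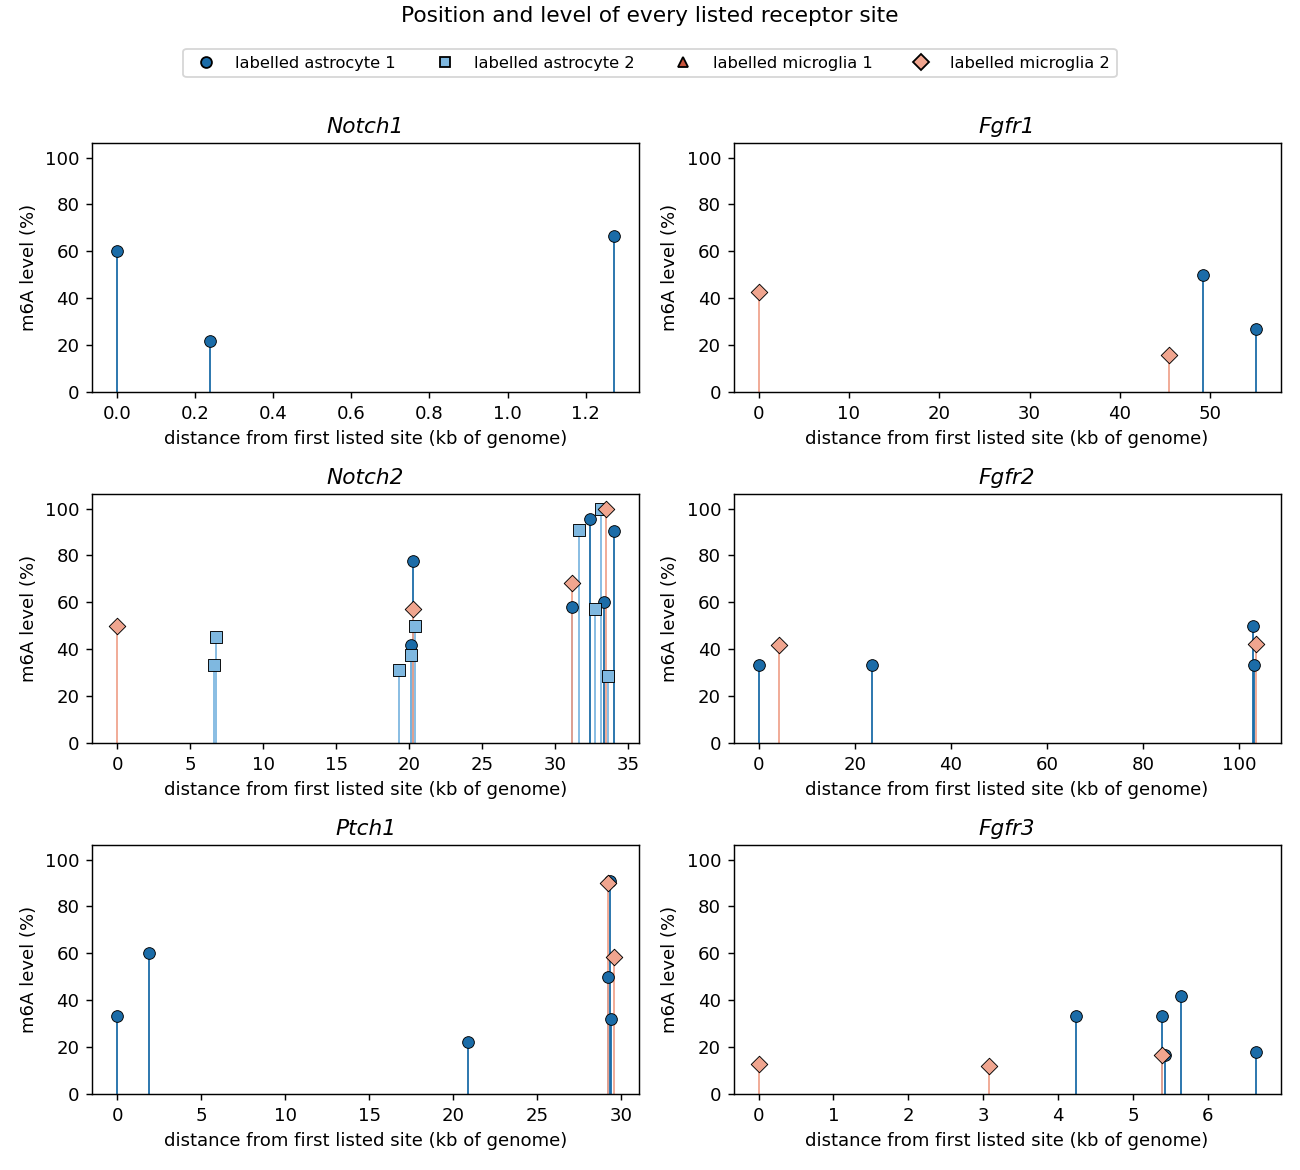
Each panel plots the m6A level in percent (vertical axis) of every listed base of 1 receptor against its distance in kilobases of genome, in the direction of transcription, from the first listed base, with a marker for each library. Bases of Notch2, Ptch1 and Fgfr2 crowd at the downstream end, Fgfr3 stays at or below 42%, and the library labelled microglia 1 has no marker in any panel.

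Across the 6 receptors, 13 of 44 bases (29.5%) lay within 100 nucleotides of another listed base of the same gene, and 27 (61.4%) within 500. Among 5051 bases of named genes with at least 3 listed bases, the shares were 22.7% and 54.2%. Of the 17 Notch2 bases, 15 had a neighbour within 500 nucleotides. By letters, 38 of 48 receptor rows (79.2%) were GAC and the remaining 10 AAC. The GAC share was 66.7% over all rows in named genes and 69% over rows in genes with at least 2 sites. All 48 were written in capitals. Lower-case letters stood in 5.61% of rows in named genes and in 3.34% of rows in genes with at least 2 sites, small shares for a set of 48 rows. No label says what the letter case stands for, and positions within exons, introns or untranslated regions and the sequence beyond these 3 letters were not determined.

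Of 44 receptor bases, 4 (9.09%) were listed in more than 1 library, and all 4 were shared by the libraries labelled astrocyte 1 and microglia 2. That pair also listed 618 of the 1030 bases of named genes found in more than 1 library. Apart from Notch2, no receptor had rows in any other pair of libraries, so only Notch2 could have shared bases elsewhere. Over all named genes 9.72% of bases were so shared, and 15.8% over genes listed in at least 2 libraries. The shared receptor bases were 98042873 and 98053781 in Notch2, 33892952 in Fgfr3 and 63659829 in Ptch1. Astrocyte 1 was higher than microglia 2 by 20.6 points at the first and lower by 10.5 points at the second. It was higher by 16.7 points in Fgfr3 and lower by 40 points in Ptch1. The SD of the difference over the 368 shared bases of named genes below 100% in both libraries was 20.1 points. The Ptch1 difference exceeded this spread, that at 98042873 was about equal to it, and the other 2 were smaller. The direction differed among the 4 bases, and no test was made on single libraries.

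The level of a site by label could be tested only at the 1100 bases listed in all 4 libraries, and none of them lay in a receptor. Over the whole table limma called 0 of 354 testable bases at an adjusted p under 0.05 (background 0%), while 16 had an unadjusted p under 0.05 and the lowest adjusted p was 0.457. Only 83 of the 1100 bases lay in named genes, and 48 of these could be tested. The groups were also set by labels that the markers go against for 2 of the libraries. That fit therefore gives no value for any receptor and says little about levels in named genes.

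Median levels of the receptors stood below those of other named genes in each library that listed them. They were 41.8% over 26 rows in the library labelled astrocyte 1, 45.5% over 9 rows in astrocyte 2 and 42.9% over 13 rows in microglia 2. All rows in named genes had medians of 66.7%, 80% and 58.9%, and rows in genes with at least 2 sites 60%, 66.7% and 50%. Only 2 of 48 receptor rows stood at 100%, both in Notch2, against 17.7% of rows in genes with at least 2 sites. Of the receptor rows, 31 (64.6%) stood at 50% or less, against 45.3%. Such levels were not particular to the receptors. Over all libraries, receptor medians ran from 17.4% in Fgfr3 to 60% in Notch1. Medians of astrocyte markers ran from 13.2% in Atp1b2 to 69.4% in Aldh1l1, and of oligodendrocyte markers from 13.7% in Cldn11 to 67.9% in Mog. The astrocyte markers with the most rows, Slc1a2, Aqp4 and Kcnj10, had medians of 20.9%, 25% and 44%. Read depth, which was not given, was not tested for a part in these levels.

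**Figure D3:**
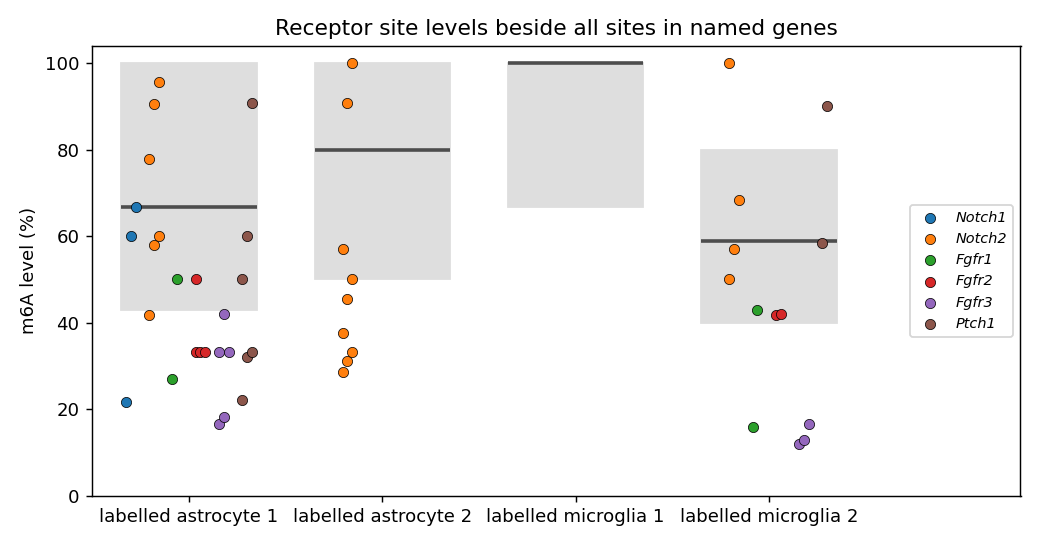
Points are the m6A levels in percent (vertical axis) of every receptor row, by library (horizontal axis) and coloured by gene, with a small sideways shift so that equal values can be seen. Grey boxes and dark lines give the middle 50% and the median of all rows in named genes, and most receptor points, including all 18 of the Fgf receptors, lie below the medians of 66.7%, 80% and 58.9%.

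The other genes of the 3 pathways had sites in every library. Among 36 genes of Notch ligands, processing and targets, 14 were listed in the library labelled astrocyte 1, 10 in microglia 2, 11 in astrocyte 2 and 3 in microglia 1. Among 36 Fgf ligands, transducers and inhibitors the numbers were 11, 7, 7 and 3 in that order, and among 27 hedgehog genes 8, 7, 3 and 2. Over 21900 RefSeq protein-coding symbols, 12.8%, 10.8%, 6.87% and 3.07% were listed. Of the remaining receptor family genes, Notch3, the Notch receptor of mural cells, had 1 site in astrocyte 1 and 2 in microglia 2 at 40% to 50% and is also among the mural markers above. Notch4, Fgfr4 and Fgfrl1 had no listed site. The difference between the receptors and these lists was not tested, and the 6 receptors were chosen with their listing known.

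Of the Notch genes, Adam10, the protease that first cuts ligand-bound Notch, had 3 sites, all in astrocyte 2, at 37.5% to 80%. That library was also the one with 9 Notch2 sites, but 31.1% of named genes had a site there, whether or not listed elsewhere. The share of genes listed in that library alone was not worked out, and a link between Adam10 and Notch2 was not tested. Aph1a, a gamma-secretase subunit, had 2 sites in astrocyte 1 and 1 in astrocyte 2 at 20% to 100%, and Dtx4, a Deltex ubiquitin ligase, had 1 and 2 at 80% to 100%.

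Of the Fgf genes, Gab1, a docking protein below receptor tyrosine kinases, had 10 rows, 4 in the library labelled astrocyte 1, 1 in astrocyte 2 and 5 in microglia 2. Its base 81491407 on chromosome 8 stood at 44.4% in astrocyte 1 and 100% in microglia 2, and 81492452 at 60% and 31.6%, in opposite directions. Spred1, an inhibitor of Ras signalling, had 5, 1 and 2 rows in the same libraries at 19.4% to 77.3%. Dusp6, the phosphatase that removes the activating phosphates of ERK, had 4 sites in astrocyte 2, 2 in microglia 1, 2 in astrocyte 1 and none in microglia 2. It was thus listed in both libraries with microglia marker sites, as were 325 of the 5526 named genes. None of the 6 receptors was, a lack shared with most named genes. The single base of Hs2st1, a heparan sulfate sulfotransferase, stood at 100% in astrocyte 1, astrocyte 2 and microglia 1.

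Of the hedgehog genes, Csnk1a1, a casein kinase that acts on Smo and Gli proteins, had 5 sites in the library labelled astrocyte 1 and 3 in microglia 2, the same counts as Fgfr3. They stood at 15.4% to 75% with no shared base. Gli2, a transcription factor of the pathway, had 5 sites in astrocyte 1 and none elsewhere, and all 5 stood at 100%, above every Ptch1 row. Gli3 had 1 site in astrocyte 1 and 2 in microglia 2 at 40% to 100%, and Gsk3b, a kinase of several pathways, had 2 in astrocyte 1 and 1 in astrocyte 2 at 50% to 80%.

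**Figure D4:**
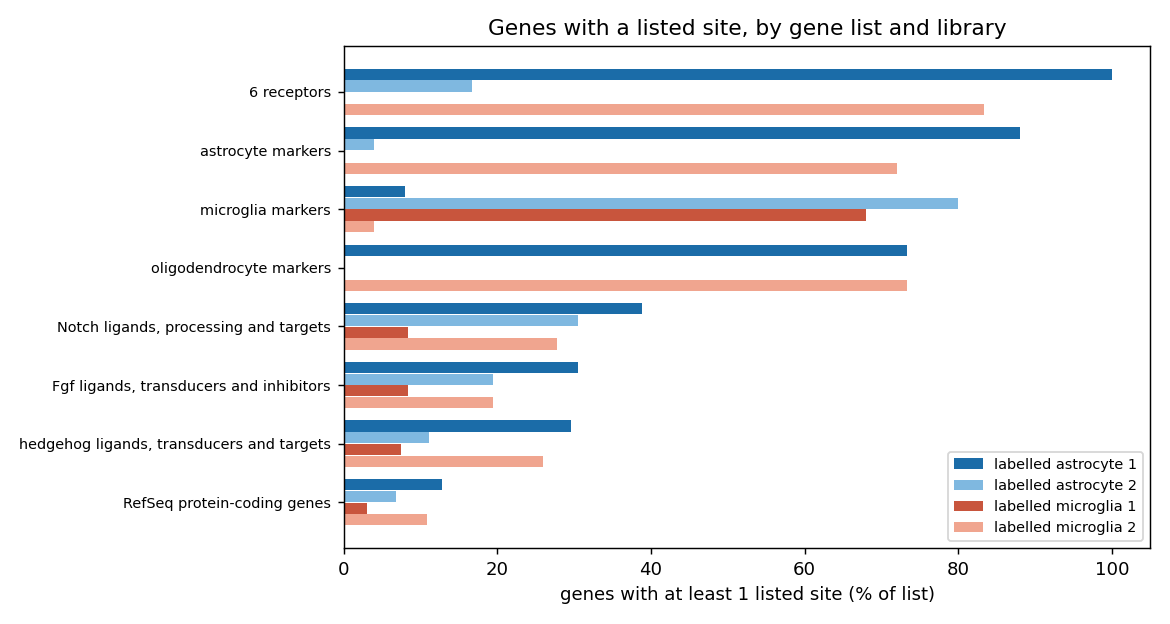
Bars give the percent of genes (horizontal axis) of each list (vertical axis) with at least 1 listed site in each library. The receptors stand at 100% in the library labelled astrocyte 1 and 83.3% in microglia 2, beside 88% and 72% for astrocyte markers and 73.3% in each for oligodendrocyte markers, while microglia markers stand at 80% in astrocyte 2 and 68% in microglia 1.

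Genes with the most similar counts of sites over the 4 libraries were found by the summed absolute difference in counts, for the 4 receptors with at least 5 rows. Notch2 had no gene with identical counts. The nearest was Lrp1, a large endocytic receptor, with 7 sites in each astrocyte library, 2 in microglia 1 and 4 in microglia 2, a summed difference of 5, and Arhgef4 and Mfhas1 followed at 8. For Fgfr3, 8 genes had identical counts, the first by name being Bcan, a brain proteoglycan, Csnk1a1 and Dtna. Arhgap23, Arhgef17 and Chst2 were the first of 8 genes identical to Fgfr2, and Mdga2, Mtss2 and Vps13d were the 3 identical to Ptch1. The measure was not scaled to site number, so a gene with many rows, such as Notch2, is matched less easily than one with few. A likeness over 4 libraries with counts this small is a description only.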

How the data were processed

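The authors deposited 1 table of called sites per library, without a header, whose 7 columns hold the position (chromosome, start, end), the gene, the level, the strand and a 3-letter sequence. The level is deposited by the authors as a fraction of reads still carrying A, with no coverage, and is given here as a percent. The site caller was GLORI-tools, per the design text, and the submitters' processing notes name STAR and the build mm39. Calling thresholds: not given in the sources used here. Positions are the end column, 1-based in mm39.

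A base was taken as shared when chromosome, position and strand were equal. Site numbers were compared with an exact permutation test. Levels were tested with limma 3.58.1 in R 4.3.3 on log2 odds, with levels limited to 0.01 to 0.99, over bases listed in all 4 libraries, with Benjamini-Hochberg adjustment at 0.05. Bases whose libraries tied within each type had no test. The fit was tested on simulated data. No coverage was in the tables, so read counts could not be tested and precision is unknown. Nothing says that the libraries of a type came from separate mice, so their spread may be technical.

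The members, the 104 other pathway symbols and the markers were chosen with earlier results of these data known. Named genes were the receptors, up to 4 pathway genes per list with the most rows, ties taken by symbol, and up to 3 genes closest in counts to each receptor with at least 5 rows. Some genes that these rules name are not reported here. RefSeq symbols (GRCm38.p6) gave gene classes only, and all 6 receptors matched.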

Additional observations from a re-analysis of the deposited data

How the results depend on the processing

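The astrocyte minus microglia difference in receptor sites was 11, and it was positive in every setting tried but 1. It became -4 in the replicate 2 libraries alone and was 26 in the replicate 1 libraries alone, both settings chosen after seeing the data. Leaving out 1 library gave 2.5 to 19.5. It was 12 for levels of at least 20%, 11 for levels under 100% and 12 with unnamed rows inside the receptors added, and 0.291 points as a percent of sites in named genes. On that percent both libraries labelled astrocyte exceeded both labelled microglia. The exact permutation p was then 0.333, the smallest this design allows, against 0.667 for the counts. That order too rests on labels the markers go against. With the replicate number as a block the difference in receptor sites was 11 (exact sign-flip p = 1) and limma called 0 bases. Deviations of libraries with the same number correlated at -0.097 over 1100 bases, so nothing shows that the numbers pair the libraries. The limma count was 0 under all alternatives, with smallest adjusted p from 0.25 to 0.999, and 0 when leaving out each library. The number of receptors listed by astrocyte label alone was 0, and 0 to 1 when leaving out each library. It was 1 without astrocyte 2, where 24.3% and a further 4.09% of named genes met the rule. It was also 1 without microglia 2, where 4.89% and a further 4.09% did. Without astrocyte 1 or microglia 1 it was 0, and the share of named genes was not worked out. Shared bases numbered 4 within 1 base and 3 at 20% or more in both libraries. Without the site at 100%, the receptor median in the library labelled astrocyte 2 moved from 45.5% to 41.5%, and medians of the other libraries moved less than the spread between libraries. Depth is unknown, so an unlisted base cannot be called unmethylated.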

Other observations

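Rows without a gene name also lay between the first and last listed base of 4 receptors, on the strand of the receptor. There were 8 such rows, 5 in the library labelled astrocyte 1 and 3 in microglia 2, and none in astrocyte 2 or microglia 1. No row of any kind lay on the opposite strand inside a receptor. Fgfr2 held 5 of them. In astrocyte 1 these were at 129786830 with 80%, 129835306 with 100% and 129853442 with 50%, and in microglia 2 at 129816537 with 77.8% and 129854135 with 100%. Fgfr1 held 1 in astrocyte 1 at 26035342 with 100%, Ptch1 held 1 in astrocyte 1 at 63686189 with 100%, and Fgfr3 held 1 in microglia 2 at 33891631 with 57.1%. The base in Fgfr3 lay between listed Fgfr3 bases at 12.05% and 33.3%. The median of the 8 rows was 90%, beside 42.5% for the 48 named receptor rows and 100% for all rows outside named genes. No label says why these rows carry no gene name, and no base among them was listed in more than 1 library.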
